A study of Mus musculus with 24 samples.

Results

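Keratins form the intermediate filaments of epithelial cells, each filament being built from a type I and a type II chain. In stratified squamous epithelia the basal layer holds Krt5 and Krt14, and cells that leave it switch to other pairs. Krt1 and Krt10 make up the suprabasal pair of the epidermis, while Krt4 and Krt13 make up that of wet linings such as esophagus and oral mucosa. Krt78 and Krt80 are type II keratins found in differentiating layers of stratified epithelia. Normal urothelium has simple keratins and uroplakins in its upper layer, and squamous keratins are seen in bladder tumors with squamous differentiation. No normal urothelium was among the samples, so keratin levels cannot be set against it.

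The RNA levels of these 6 suprabasal squamous keratins, Krt1, Krt4, Krt10, Krt13, Krt78 and Krt80, were followed in the BBN-induced Urothelial carcinoma Roswell Park (BURP) tumor lines. The 6 genes were chosen by name, out of 53465 genes in the table. The lines descend from bladder tumors of C57BL/6NTac mice given 0.1% of the carcinogen BBN in water from 8 weeks of age for up to 36 weeks. Each line came from 1 donor mouse and was carried under the skin of sex-matched mice of the same strain, so all groups shared carcinogen, strain and site of growth, and each line stands for 1 primary tumor. RNA of 24 tumors was sequenced, 3 from each of 8 lines. The study assigned 6 lines to the basal/squamous (Ba/Sq) subtype, using a consensus classifier on the RNA levels of these same tumors. BURP-12BaSq, BURP-17BaSq and BURP-18BaSq grew in male mice, the other 3 (BURP-21BaSq, BURP-24BaSq, BURP-25BaSq) in female mice. The study called BURP-16SR stroma-rich and BURP-19NE neuroendocrine-like, both from male mice. For 1 of the 3 BURP-16SR tumors it reported a high correlation with the neuroendocrine-like class instead. Tumors are called by the ends of their labels, such as C41-M3 or P4. The study writes passages under the skin as P and a number, so labels like P4 give the passage. Labels like C41-M3 are not explained and give no passage, so tumors of a line may differ in passage. No label names a batch.

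Totals per tumor ran from 9295708 to 25370320 counts, with a median of 17693147. Levels are CPM, each count divided by its library total and scaled to a common size by TMM, and 3 counts, taken as the least a library could show, equalled 0.11 to 1.28 CPM. The highest of these floors belonged to BURP-25BaSq C102-M30, in which a single ribosomal RNA gene took 61.9% of the counts. The label of BURP-25BaSq C102-M1 was in doubt. Over 20473 genes, its log2 CPM correlated at 0.962 to 0.973 with the BURP-21BaSq tumors and at 0.873 to 0.894 with the other 2 tumors of its own line. It was kept as labelled, and results of these suprabasal keratins in BURP-21BaSq and BURP-25BaSq are also given with it counted as BURP-21BaSq. Since a line has 1 donor, p-values between single lines measure the spread between transplants of these lines. Against BURP-16SR and BURP-19NE, the 18 Ba/Sq tumors were taken as 1 group of replicates, although tumors of a line share a donor. There the spread between Ba/Sq lines enters as well. The test of the sexes used counts summed by line and measures the spread between lines. The labels were checked against marker genes, though this check was not independent, as the subtypes came from the same RNA. All 18 Ba/Sq tumors held the basal keratins Krt5, at 2946 to 6214 CPM, and Krt14, at 2626 to 5616 CPM. The uroplakins, which coat the urothelial surface, summed to 0.623 to 28.4 CPM over 5 genes in the same tumors, with 2 to 4 genes at 3 counts or more. The defining markers of urothelium were thus at low levels.

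In GRCm38 the type II genes lay on the minus strand of chromosome 15 and the type I genes on the minus strand of chromosome 11. Krt80 (ENSMUSG00000037185.8) spanned chr15:101347444-101370162 and Krt1 (ENSMUSG00000046834.6) spanned chr15:101845426-101850794. Krt4 (ENSMUSG00000059668.5) lay at chr15:101918535-101924735 and Krt78 (ENSMUSG00000050463.8) at chr15:101946001-101954287. Krt10 (ENSMUSG00000019761.10) lay at chr11:99385254-99389364 and Krt13 (ENSMUSG00000044041.4) at chr11:100117327-100121566. The main protein-coding transcript had 9 exons in each type II gene and 8 exons in each type I gene. Antisense genes overlapped Krt10 (Gm11940) and Krt80 (Gm35853 and Mir1941). The libraries carried dUTP in the second strand, which marks strand, but no use of strand in counting is stated. Whether reads of such partners were kept apart is therefore not known. Estimated counts that were not whole, a sign of reads shared between features, occurred in 7 of 24 tumors for Krt10, in 1 of 24 for Krt4 and in none for the other 4 genes.

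The promoters are shown so that the letters before the starts can be read side by side, though no pair had both of its genes matched. RefSeq windows of 250 bases before the start (GRCm38.p6) were matched for 3 of the 6 genes, with 4 windows in all, and those at the start of the gene are printed. They are written 5′ to 3′ on the minus strand, with capitals marking matches to TATAAA (the TATA box), CACCC (the CACCC box), TGANTCA (the AP-1 site) and CACCTG (an E-box), searched on both strands. The windows lie at chr11:99389365-99389614 for Krt10, at chr11:100121567-100121816 for Krt13 and at chr15:101954288-101954537 for Krt78.
Krt10: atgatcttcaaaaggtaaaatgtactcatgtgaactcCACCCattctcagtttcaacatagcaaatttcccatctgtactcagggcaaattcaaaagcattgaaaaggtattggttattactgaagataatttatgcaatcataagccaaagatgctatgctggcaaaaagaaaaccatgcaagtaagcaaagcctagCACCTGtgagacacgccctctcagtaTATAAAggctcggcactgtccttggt
Krt13: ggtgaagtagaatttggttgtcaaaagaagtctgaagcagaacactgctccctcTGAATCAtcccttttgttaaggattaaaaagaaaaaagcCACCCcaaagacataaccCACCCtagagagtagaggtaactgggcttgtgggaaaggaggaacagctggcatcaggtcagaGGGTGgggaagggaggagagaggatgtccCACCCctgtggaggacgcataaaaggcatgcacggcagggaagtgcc
Krt78: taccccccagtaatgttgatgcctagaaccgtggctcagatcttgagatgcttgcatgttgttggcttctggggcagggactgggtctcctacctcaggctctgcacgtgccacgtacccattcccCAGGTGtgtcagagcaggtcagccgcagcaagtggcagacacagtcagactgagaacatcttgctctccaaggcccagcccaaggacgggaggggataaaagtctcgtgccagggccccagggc
The Krt10 window held TATAAA at positions -26 to -21, counted from the first base before the start as -1, CACCTG from -52 and CACCC from -213. The Krt13 window held CACCC at 4 places, 1 of them on the other strand as GGGTG, and TGANTCA from -196. A second RefSeq window of Krt13, at chr11:100120578-100120827 before a start 989 bases inside the gene, is not printed. It held CACCC once, as GGGTG from -25, and TGANTCA from -183 and from -34. The Krt78 window held 1 match, CACCTG on the other strand as CAGGTG, from -124. No 2 matches overlapped. Of 32851 RefSeq promoter windows of the same length, 12.4% held TATAAA, 52.0% CACCC, 6.75% TGANTCA and 17.2% CACCTG. Krt10 and Krt13, the 2 type I genes, thus shared CACCC, the most common of these motifs. A match of letters is a description and was not tested for binding. Krt1, Krt4 and Krt80 were not matched.

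**Figure D1:**
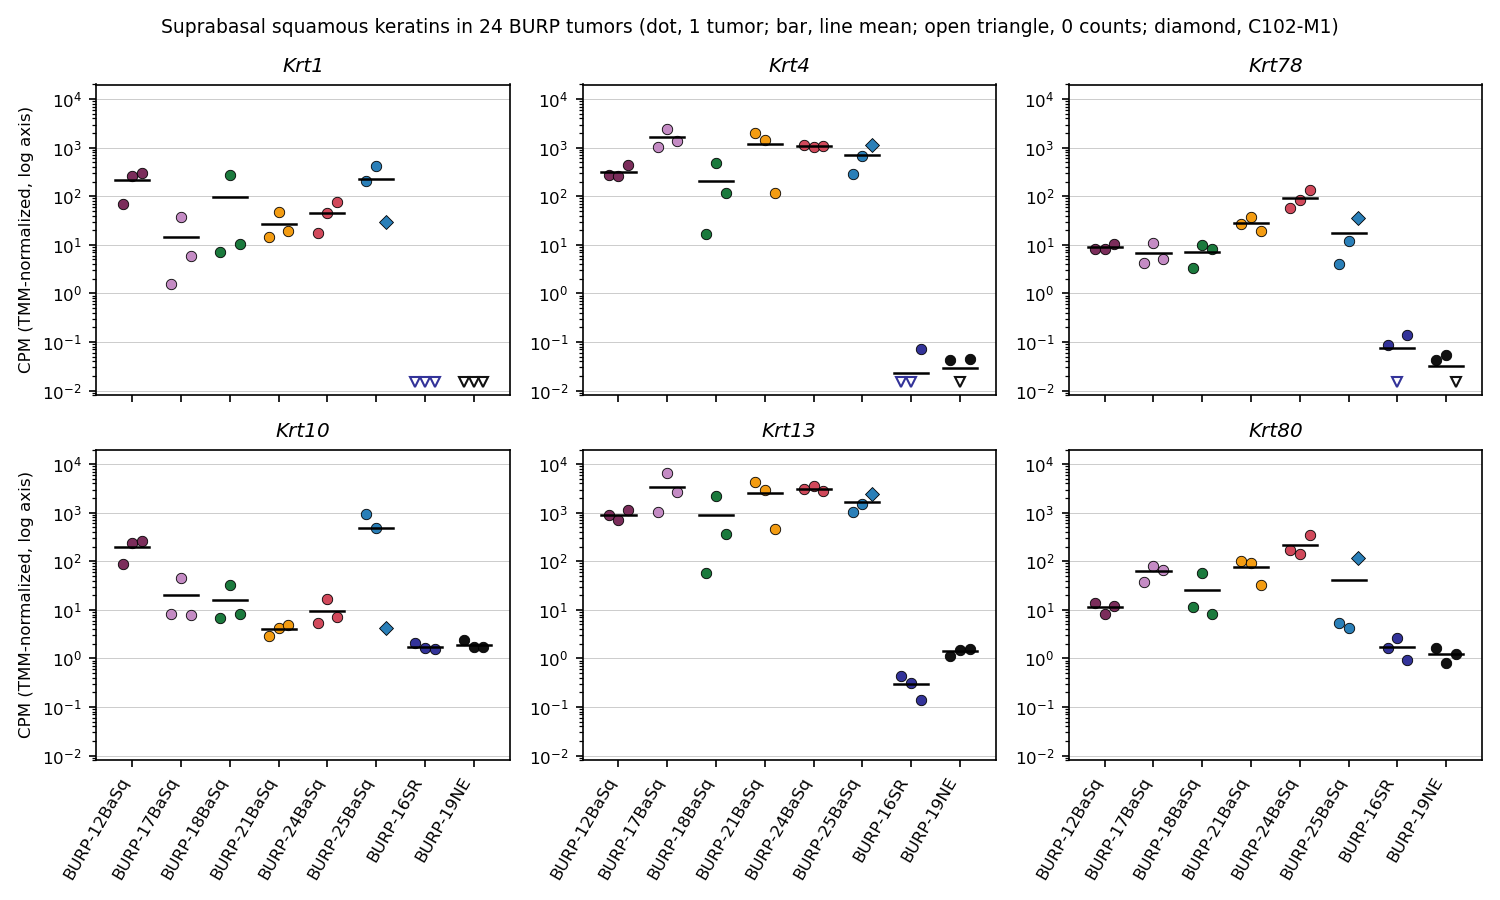
TMM-normalized CPM of each keratin (log axis) in the 24 tumors by line, with a bar at the mean of each line, open triangles for 0 counts and a diamond for C102-M1. Every Ba/Sq tumor lies above every BURP-16SR and BURP-19NE tumor for each of the 6 genes.

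In the 18 Ba/Sq tumors Krt13 was the most abundant of the 6 per kilobase of its main transcript. It made up 48.2% to 78.5% of their summed CPM per kilobase, and Krt4 10.6% to 43.2%. The epidermal pair was a minor part in most tumors. Krt1 reached 13.5% and Krt10 34.5% at most, the first in BURP-12BaSq C47-M30 and the second in BURP-25BaSq C102-M3. Krt78 stayed at 1.85% or less and Krt80 at 6.95% or less. The summed level itself ran from 53.3 CPM per kilobase in BURP-18BaSq C148-M3 to 5173 in BURP-17BaSq C165-M30. In BURP-16SR and BURP-19NE it ran from 1.19 to 2.38 CPM per kilobase, and most of that came from Krt10, Krt13 and Krt80.

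**Figure D2:**
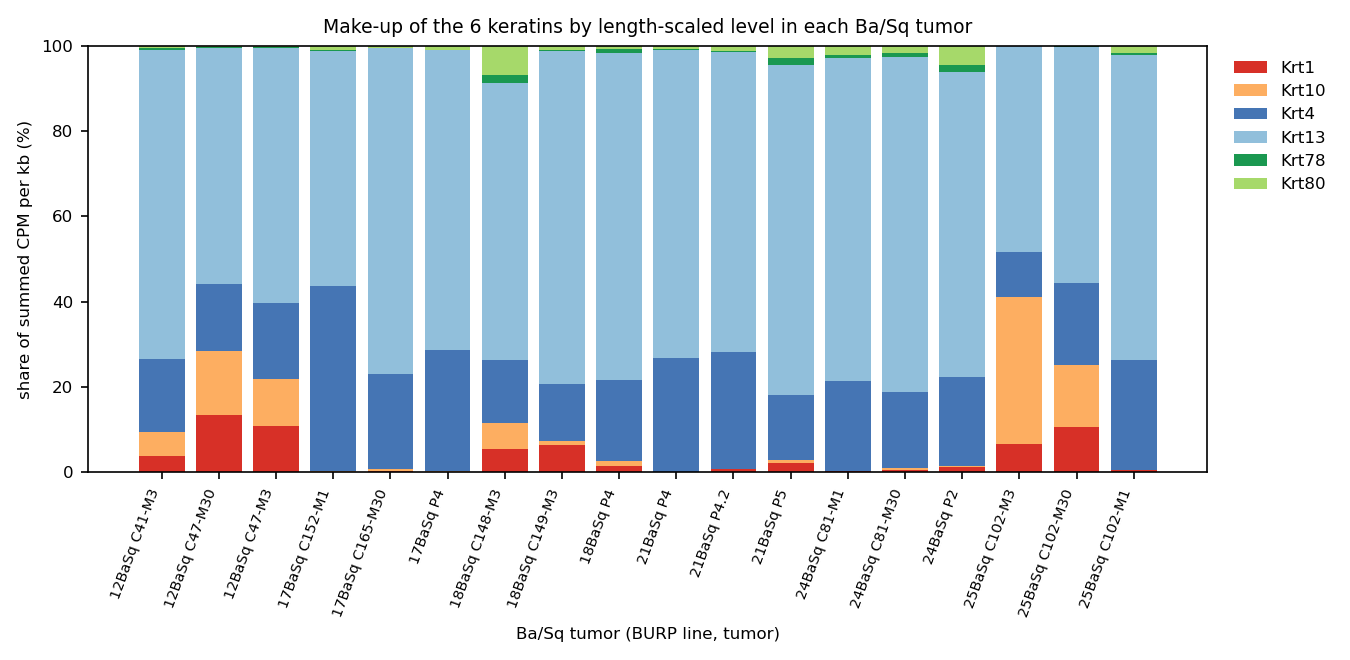
Share of each keratin in the summed CPM per kilobase of the 6 genes (vertical axis, %) in each of the 18 Ba/Sq tumors. Krt13 is the largest part in every tumor, and Krt10 is largest in BURP-25BaSq C102-M3, at 34.5%.

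All 6 keratins varied more between Ba/Sq tumors than most genes did. The SD of log2 CPM over the 18 tumors was 2.65 for Krt10, 2.24 for Krt1, 1.91 for Krt80, 1.8 for Krt4, 1.61 for Krt13 and 1.55 for Krt78. The median SD of 20523 genes was 0.611, and from 91.5% to 99.3% of them had a smaller SD than a given member. For Krt78 the SD between line means, 1.47, exceeded that within lines, 0.851. For Krt13 it was the reverse, with 1.15 between and 1.43 within lines. Bulk RNA cannot tell fewer differentiated cells from less RNA of a keratin per cell.

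Krt4 and Krt13, the mucosal pair, were present in every Ba/Sq tumor and varied together. Krt13 ranged from 57.2 to 6537 CPM with a median of 1850, and Krt4 from 16.8 to 2461 CPM with a median of 848. BURP-24BaSq was the most even line, with Krt13 at 3117, 3503 and 2816 CPM in C81-M1, C81-M30 and P2. Its Krt4 levels were 1124, 1031 and 1071 CPM. BURP-17BaSq held the highest tumor, C165-M30, with Krt13 at 6537 CPM against 1043 in C152-M1 and 2667 in P4. Krt4 in the same order was 2461, 1053 and 1390 CPM.

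Single tumors stood apart within other lines. In BURP-18BaSq, Krt13 was 57.2 CPM in C148-M3, 2224 in C149-M3 and 368 in P4, a 38.9-fold range. Krt4 there was 16.8, 490 and 117 CPM. In BURP-21BaSq, Krt13 was 4274, 2934 and 463 CPM in P4, P4.2 and P5, with Krt4 at 2037, 1474 and 119 CPM. P5 was thus the low tumor for both genes. BURP-12BaSq held Krt13 at 887, 709 and 1137 CPM and Krt4 at 268, 258 and 439 CPM in C41-M3, C47-M30 and C47-M3. In BURP-25BaSq, Krt13 was 1033 CPM in C102-M3, 1477 in C102-M30 and 2464 in the doubtful C102-M1, and Krt4 was 292, 664 and 1144 CPM.

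By line means, Krt4 ran from BURP-17BaSq (1635 ± 735 CPM, SD, n = 3) through BURP-21BaSq, BURP-24BaSq, BURP-25BaSq and BURP-12BaSq to BURP-18BaSq (208 ± 250 CPM). Krt13 ran from BURP-17BaSq (3416 ± 2823 CPM) through BURP-24BaSq, BURP-21BaSq, BURP-25BaSq and BURP-12BaSq to BURP-18BaSq (883 ± 1172 CPM). Tumors of neighboring Ba/Sq lines in these orders overlapped throughout. edgeR's F test across the 6 lines gave an adjusted p of 0.1 for Krt4 and 0.301 for Krt13, neither past 0.05. These values depended on single tumors. Without BURP-18BaSq C149-M3, the adjusted p was 0.0247 for Krt4 and 0.0359 for Krt13, and without BURP-21BaSq P5 it was 0.0349 for Krt4. Without C149-M3, BURP-18BaSq was also lower than the other lines in both genes, by a log2 fold change of -3.72 (SE 0.98, adjusted p = 0.0159) for Krt4 and -3.35 (SE 0.92, adjusted p = 0.0199) for Krt13.

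Per kilobase, Krt13 exceeded Krt4 in all 18 Ba/Sq tumors, by 1.28 times in BURP-17BaSq C152-M1 to 5.85 times in BURP-18BaSq C149-M3. The Pearson correlation of log2 CPM between the pair was 0.964 over the 18 tumors (Spearman's rho 0.913). It was 0.983 over the 6 line means and 0.955 within lines. The points share their libraries, and 3 come from each line. Apart from the members, Gsto1, a glutathione transferase of the omega class, had the most similar pattern to Krt13 (r = 0.935) and to Krt4 (r = 0.914) among 20473 genes in the 18 tumors. Next came Epn3 (0.932) and Sdcbp2 (0.918) for Krt13, and the retinaldehyde dehydrogenase Aldh1a3 (0.914) and AI661453 (0.913) for Krt4.

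Krt1 and Krt10, the epidermal pair, were both high in BURP-12BaSq and in 2 tumors of BURP-25BaSq, while in other tumors Krt10 was lower. In BURP-12BaSq, Krt1 was 69.7, 257 and 308 CPM and Krt10 was 87.6, 241 and 265 CPM in C41-M3, C47-M30 and C47-M3. In BURP-25BaSq, C102-M3 and C102-M30 held Krt1 at 209 and 426 CPM and Krt10 at 937 and 491 CPM. C102-M1 held 29.2 CPM of Krt1 and 4.19 of Krt10, which lies within the BURP-21BaSq range for both genes. In BURP-21BaSq, Krt10 was 2.89, 4.17 and 4.98 CPM, the lowest of the Ba/Sq lines, while Krt1 was 14.3, 47.4 and 19.0 CPM.

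The remaining lines had low Krt10 with variable Krt1. BURP-24BaSq held Krt10 at 5.27, 16.6 and 7.13 CPM and Krt1 at 17.6, 44.8 and 74.6 CPM. BURP-17BaSq held Krt10 at 8.16, 46.1 and 7.68 CPM and Krt1 at 1.59, 36.9 and 5.80 CPM, both highest in C165-M30. In BURP-18BaSq, Krt1 was 7.05, 271 and 10.4 CPM in C148-M3, C149-M3 and P4, and Krt10 was 6.79, 32.4 and 8.05 CPM. C149-M3 therefore held a Krt1 level in the BURP-12BaSq range beside a Krt10 level below it.

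Per kilobase, Krt1 to Krt10 ratios were 0.679 to 0.988 in BURP-12BaSq, 0.166 to 0.683 in BURP-17BaSq, and 0.190 and 0.741 in C102-M3 and C102-M30. They were 3.26 to 9.70 in BURP-21BaSq, 2.31 to 8.92 in BURP-24BaSq and 5.95 in C102-M1. In BURP-18BaSq they were 0.886, 1.10 and 7.15, the last in C149-M3. The tumors thus divided into those with about as much Krt1 as Krt10 or less and those with an excess of Krt1. The correlation of the pair was 0.755 over 18 tumors (rho 0.614). It was 0.728 within lines, and 0.809 within lines without C102-M1.

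**Figure D3:**
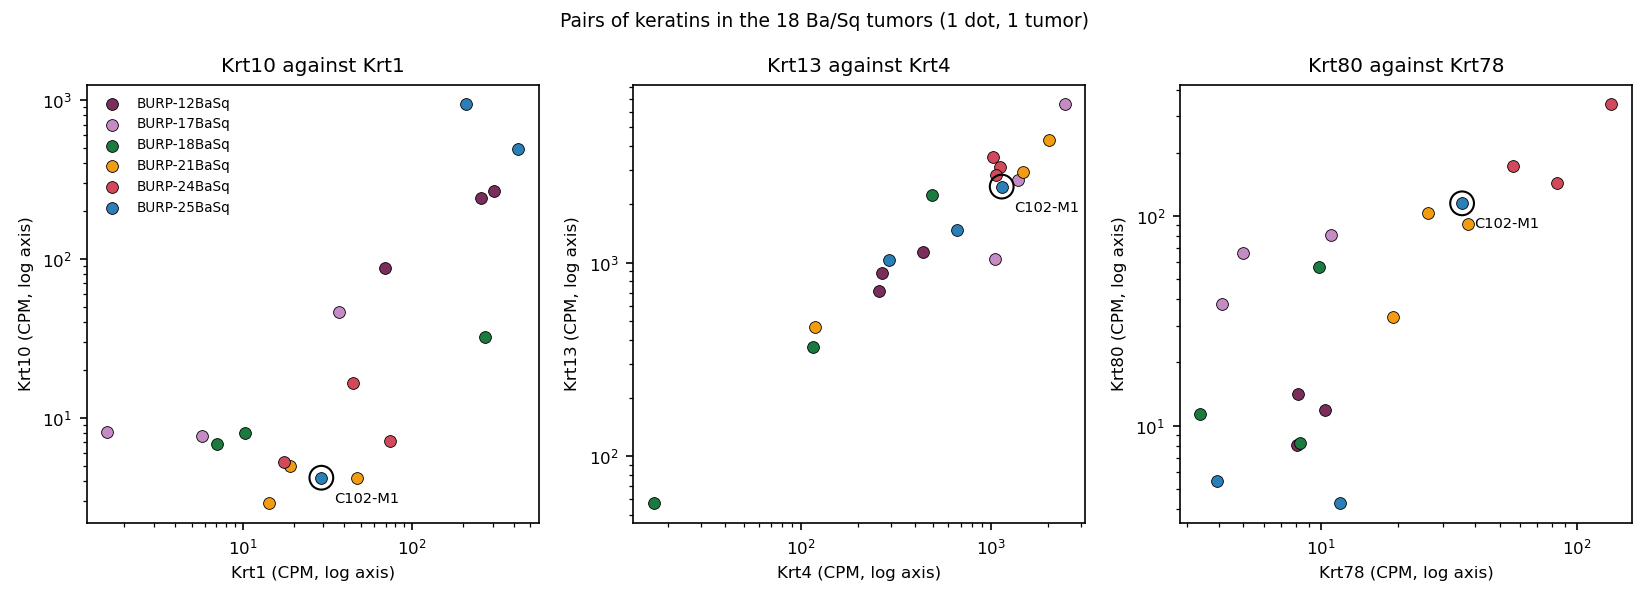
CPM of Krt10 against Krt1, Krt13 against Krt4 and Krt80 against Krt78 (log axes) in the 18 Ba/Sq tumors, colored by line, with C102-M1 ringed. Krt4 and Krt13 follow 1 diagonal (r = 0.964), while Krt1 and Krt10 form a low-Krt10 band and a steep arm of BURP-12BaSq and BURP-25BaSq tumors.

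By line means, Krt10 ran from BURP-25BaSq (477 ± 467 CPM, SD, n = 3) and BURP-12BaSq (198 ± 96.5) to BURP-17BaSq (20.6 ± 22.0), BURP-18BaSq, BURP-24BaSq and BURP-21BaSq (4.01 ± 1.06). Neighbors did not overlap between BURP-12BaSq and BURP-17BaSq and between BURP-24BaSq and BURP-21BaSq. Krt1 ran from BURP-25BaSq (221 ± 199 CPM) and BURP-12BaSq (212 ± 125) through BURP-18BaSq, BURP-24BaSq and BURP-21BaSq to BURP-17BaSq (14.8 ± 19.3), and all neighbors overlapped. Without C102-M1 the BURP-25BaSq mean was 714 CPM for Krt10 and 317 for Krt1 (n = 2). Krt10 differed among the 6 Ba/Sq lines (edgeR F test, adjusted p = 0.00158), and Krt1 did not pass (adjusted p = 0.0909). A total of 3 of the 6 members passed, Krt10, Krt78 and Krt80, beside 50.5% of all 20523 genes, so that count is what the background gives. Krt10 was higher in BURP-25BaSq than in the mean of the other 5 lines by a log2 fold change of 4.67 (SE 0.70, adjusted p = 0.00333). It was higher in BURP-12BaSq by 3.14 (SE 0.72, adjusted p = 0.00683). The log2 fold change of Krt1 in these lines was 2.13 (SE 0.86, adjusted p = 0.176) and 2.03 (SE 0.86, adjusted p = 0.104), which did not pass. Without BURP-18BaSq C149-M3, the Krt1 values became 2.83 (adjusted p = 0.0343) and 2.72 (adjusted p = 0.0115), and both passed. When BURP-12BaSq or BURP-25BaSq was compared with the other 15 tumors as 1 group, the Krt10 call was lost and its estimate was smaller (log2 fold change 0.91 with adjusted p = 0.74, and 3.27 with adjusted p = 0.334).

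With C102-M1 counted as BURP-21BaSq, Krt10 in BURP-25BaSq was higher by 5.25 (SE 0.47, adjusted p = 7.54e-06) and in BURP-21BaSq lower (log2 fold change -3.72, SE 0.64, adjusted p = 0.00125). As labelled, the BURP-21BaSq value was -3.62 (SE 1.14, adjusted p = 0.0782). The F test of Krt1 then passed (adjusted p = 0.0326), and 4 of 6 members passed beside 60.5% of all genes. Simple keratins and uroplakins were also higher in the 2 BURP-25BaSq tumors with high Krt10 than in C102-M1. The 5 simple keratins summed to 1235 CPM in C102-M3, 1383 in C102-M30 and 76.0 in C102-M1, and the 5 uroplakin genes to 28.4, 11.1 and 0.838 CPM. In BURP-25BaSq as labelled, 2 of 5 simple keratins were higher, Krt8 (3.70, adjusted p = 0.00113) and Krt20 (5.40, adjusted p = 0.00591), as was 1 of 3 uroplakin genes tested, Upk2 (4.64, adjusted p = 0.00357), beside 2.05% of all genes. BURP-17BaSq and BURP-18BaSq, with low Krt10, held simple keratin sums of 917 to 2918 CPM, and BURP-12BaSq, with high Krt10, of 30.9 to 80.4 CPM. Uroplakin sums were 2.65 to 19.0 CPM in BURP-17BaSq, 1.96 to 11.5 in BURP-18BaSq and 1.10 to 1.19 in BURP-12BaSq. The part of cells with simple keratins or uroplakins in the Krt10 level was not tested. Genes closest to Krt10 over the 18 tumors were Frs2 (r = 0.932), an adaptor of fibroblast growth factor receptors, Gm8613 (0.922) and 5930403N24Rik (0.912). Those closest to Krt1 were the DNA repair gene Xpa (0.888), the replication gene Gins3 (0.868) and Gm45025 (0.828).

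Krt78 and Krt80 were highest in BURP-24BaSq. Krt78 there was 56.6, 83.7 and 137 CPM in C81-M1, C81-M30 and P2, and Krt80 was 174, 143 and 340 CPM. No tumor of another line, C102-M1 included, reached these levels. The next line, BURP-21BaSq, held Krt78 at 26.3, 37.8 and 19.1 CPM and Krt80 at 103, 91.4 and 32.9 CPM, and C102-M1 held 35.7 and 115 CPM.

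The other lines held little Krt78. It was 8.19, 8.07 and 10.4 CPM in BURP-12BaSq, 4.14, 11 and 5 CPM in BURP-17BaSq, and 3.40, 9.86 and 8.33 CPM in BURP-18BaSq. C102-M3 and C102-M30 held 3.96 and 11.9 CPM. Krt80 was 38.2, 80.9 and 66.8 CPM in BURP-17BaSq but 14.1, 8.11 and 11.9 CPM in BURP-12BaSq, and 5.46 and 4.25 CPM in C102-M3 and C102-M30. In BURP-18BaSq it was 11.4, 56.8 and 8.27 CPM, again highest in C149-M3. Per kilobase, Krt80 exceeded Krt78 from 8.23 to 15 times in BURP-17BaSq, and was below it, at 0.40 times, only in C102-M30.

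Line means of Krt78 ran from BURP-24BaSq (92.3 ± 40.7 CPM, SD, n = 3) through BURP-21BaSq, BURP-25BaSq, BURP-12BaSq and BURP-18BaSq to BURP-17BaSq (6.72 ± 3.74). Those of Krt80 ran from BURP-24BaSq (219 ± 106 CPM) through BURP-21BaSq, BURP-17BaSq, BURP-25BaSq and BURP-18BaSq to BURP-12BaSq (11.4 ± 3.03). For both genes BURP-24BaSq did not overlap the next line, and all other neighbors overlapped. The F test across the lines passed for Krt78 (adjusted p = 0.000784) and Krt80 (adjusted p = 0.0273). In BURP-24BaSq against the mean of the other 5 lines, Krt78 was higher by a log2 fold change of 2.95 (SE 0.39, adjusted p = 0.00025) and Krt80 by 2.57 (SE 0.62, adjusted p = 0.0119). The Krt80 value rested on P2, without which it was 2.12 with an adjusted p of 0.0922. The F test of Krt80 lost its call without P2 (adjusted p = 0.0929) or without any 1 of the BURP-12BaSq tumors (adjusted p = 0.0541 to 0.0663). With the other 15 tumors as 1 group, Krt80 in BURP-24BaSq had an adjusted p of 0.0959. With C102-M1 counted as BURP-21BaSq, Krt78 (1.27, SE 0.30, adjusted p = 0.0101) and Krt80 (1.57, SE 0.40, adjusted p = 0.0133) were higher in BURP-21BaSq. Krt80 was then lower in BURP-25BaSq (log2 fold change -3.31, SE 0.79, adjusted p = 0.0121), while as labelled its value was -0.22 (adjusted p = 0.923). Under the same change Krt80 was lower in BURP-12BaSq (-1.91, adjusted p = 0.0203), Krt10 lower in BURP-24BaSq (-2.27, adjusted p = 0.0237), and Krt78 lower in BURP-17BaSq (-1.33, adjusted p = 0.0388) and BURP-18BaSq (-1.16, adjusted p = 0.0378).

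The background of these line comparisons is the share of all genes called. In BURP-24BaSq 2 of 6 members were higher beside 5.46% of all genes, in BURP-25BaSq 1 of 6 beside 2.05%, and in BURP-12BaSq 1 of 6 beside 5.23%. None of the 6 passed in BURP-17BaSq (6.18% of genes called in either direction), BURP-18BaSq (15.5%) or BURP-21BaSq (2.86%). With C102-M1 counted as BURP-21BaSq, that line had 2 members higher beside 5.2% of genes and 1 lower beside 2.93%, and BURP-25BaSq had 1 higher beside 4.56% and 1 lower beside 3.32%.

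**Figure D4:**
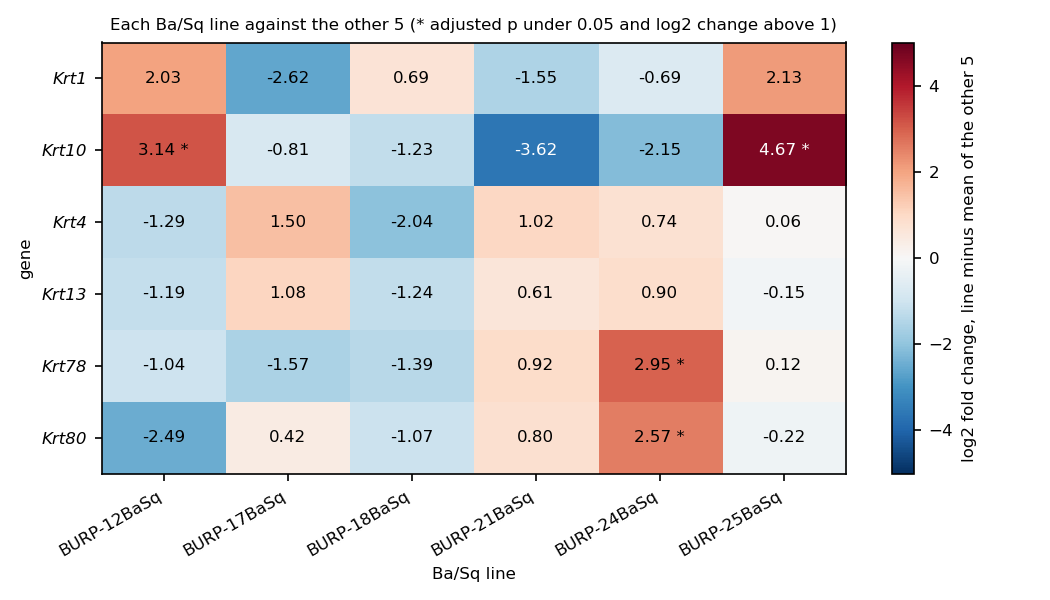
Log2 fold change of each keratin (rows) in each Ba/Sq line against the mean of the other 5 lines (columns), with all tumors as labelled and stars at adjusted p under 0.05 with an absolute change above 1. Stars fall on Krt10 in BURP-12BaSq and BURP-25BaSq and on Krt78 and Krt80 in BURP-24BaSq.

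Krt78 and Krt80 correlated at 0.744 over the 18 tumors (rho 0.736). Within lines they correlated at 0.738, and at 0.476 without C102-M1. Krt10 and Krt80 ran opposite, at -0.697 (rho -0.637). Over the 6 line means, with C102-M1 as labelled, Krt10 and Krt80 correlated at -0.759. Within lines they correlated at -0.595 with C102-M1 and at 0.345 without it, so the sign within lines rested on that tumor. Krt80 was most like Cnfn, the cornified envelope gene cornifelin (r = 0.964), Cpeb2 (0.958) and Uaca (0.95). Krt78 was most like Sdr16c6 (0.906), Slc35f2 (0.897) and Adgrf2 (0.891).

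The members were at or near 0 in BURP-19NE and BURP-16SR, with no overlap with the 18 Ba/Sq tumors for any of the 6 genes. Krt1 had 0 counts in all 6 tumors, which allows up to 0.0775 CPM over BURP-16SR and 0.0464 over BURP-19NE. Krt4 had 1 count over the 3 BURP-16SR tumors and 2 over the 3 BURP-19NE tumors, and Krt78 had 3 and 2. Krt13 was 0.428, 0.313 and 0.14 CPM in BURP-16SR C73-M10, C74-MNT and P5, from 11 counts in all. In BURP-19NE C80-M1, C80-M3 and C80-M30 it was 1.15, 1.47 and 1.59 CPM, from 90 counts.

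Krt10 and Krt80 kept a low level in both lines, as did Krt13 in BURP-19NE. Krt10 was 2.06, 1.64 and 1.54 CPM in BURP-16SR and 2.33, 1.74 and 1.68 CPM in BURP-19NE. The lowest Ba/Sq tumor, BURP-21BaSq P4, was just above them at 2.89 CPM. Krt80 was 1.63, 2.58 and 0.912 CPM in BURP-16SR and 1.66, 0.789 and 1.23 CPM in BURP-19NE, against 4.25 CPM in the lowest Ba/Sq tumor, C102-M30.

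Against BURP-19NE, 5 of 6 members were lower than in the Ba/Sq lines, beside 15% of 20995 genes, and the tumors of 18% of genes did not overlap. The subtypes were assigned from this same RNA, so part of the difference, here and against BURP-16SR, may be built into the groups. The mean of the 18 Ba/Sq tumors was at least 2212-fold higher for Krt1 (adjusted p = 0.0018). For Krt4 the ratio of the Ba/Sq mean to the pooled BURP-19NE counts was 27722, with a 95% Poisson interval of 7674 to 228910 (adjusted p = 6.78e-06). For Krt78 it was 861 (238 to 7113, adjusted p = 0.000511), and these intervals cover counting error only. Krt13 fell by 10.52 on the log2 scale (SE 1.42, adjusted p = 8.18e-06) and Krt80 by 5.86 (SE 1.49, adjusted p = 0.00454). Krt10 had a log2 fold change of -5.97 (SE 2.33), with an adjusted p of 0.0529 that missed the threshold. DESeq2, which made more false calls than edgeR on simulated data of this comparison, gave 0.000277 for it and a fit of all 24 tumors 0.00376, and it passed in edgeR when any 1 of 8 Ba/Sq tumors was left out, at 0.0466 to 0.0499.

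Against BURP-16SR the same 5 members were lower and Krt10 missed the threshold (log2 fold change -6.06, SE 2.36, adjusted p = 0.064), beside 8.62% of 21028 genes called lower and 11.4% without overlap. This comparison shares the 18 Ba/Sq tumors with the one before. The Ba/Sq mean of Krt1 was at least 1326-fold higher (adjusted p = 0.00345). The ratio to the pooled counts was 33236 for Krt4 (interval 5965 to 1312700, adjusted p = 1.48e-05) and 344 for Krt78 (118 to 1669, adjusted p = 0.00158). Krt13 fell by 12.74 (SE 1.61, adjusted p = 4.8e-06) and Krt80 by 5.35 (SE 1.47, adjusted p = 0.0108) on the log2 scale. The call for Krt80 was lost without BURP-16SR C73-M10 or P5 (adjusted p = 0.0559 and 0.0547). Leaving out C102-M1 and C102-M30 together changed no call of a member against either line.

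The median log2 fold change of the 6 members was -10 in BURP-19NE, beside -0.14 for all genes. In BURP-16SR it was -10.51 as fitted and -9.32 with Krt1 at its floor, beside -0.03 for all genes. Between the 2 lines, 3 members had enough counts for a test. Krt13 was lower in BURP-16SR than in BURP-19NE (log2 fold change -2.17, SE 0.46, adjusted p = 0.0131), beside 8.86% of 17556 genes called lower. That call was lost in the fit of all 24 tumors (adjusted p = 0.188) and without BURP-19NE C80-M3 or C80-M30 (0.0574 and 0.0589). Krt10 and Krt80 gave adjusted p of 0.917 and 0.401.

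Markers of other cells moved in these lines too. Skeletal muscle genes were higher in BURP-19NE, 5 of 5 beside 9.33% of all genes, with a sum of 525 CPM in C80-M1, 2.79 in C80-M3 and 4.81 in C80-M30, against 0 to 31.6 CPM in the Ba/Sq tumors. All 5 had 3 counts or more in C80-M1 and 4 of 5 in the other 2. All 6 members lay below every Ba/Sq tumor in C80-M1, C80-M3 and C80-M30. Fibroblast genes were higher in BURP-16SR for 2 of 5 (Col1a1 and Pdgfra), beside 10.5% of genes, and summed to 5750 CPM in C73-M10, 15150 in C74-MNT and 443 in P5, against 145 to 7597 CPM in the Ba/Sq tumors. All 5 were detected in each tumor. C73-M10 and P5 lay within the Ba/Sq range of fibroblast RNA and C74-MNT above it, and all 6 members lay below every Ba/Sq tumor in each. The part of muscle or fibroblast RNA in the low member levels was not tested. Of the other lists of this kind, 1 of 5 leukocyte genes (Cd79a) was higher in BURP-16SR and 0 of 5 changed in BURP-19NE, where 1 of 4 adipocyte genes tested (Fabp4) was lower and 0 of 4 changed in BURP-16SR. Of 3 uroplakin genes tested, Upk1b was lower in each line.

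Other squamous genes were lower as well. Among basal keratins, 6 of 7 were lower in BURP-19NE and 7 of 7 in BURP-16SR, beside 15% and 8.62% of all genes. Krt5 fell from a Ba/Sq mean of 4117 CPM to 0.0142 in BURP-19NE and 0.114 in BURP-16SR, and Krt14 and Krt6a fell in both as well. Among other suprabasal or specialised keratins, 6 of 9 tested were lower in each line, including Krt79, Krt23 and Krt12. Cornified envelope and suprabasal proteins were lower for 18 of 23 in BURP-19NE and 17 of 23 in BURP-16SR. Ppl, the cross-linker periplakin, was among them (599 CPM in Ba/Sq, 1.54 in BURP-19NE and 20.3 in BURP-16SR). The 2 most abundant genes of that list did not pass. Emp1, a membrane protein, averaged 1350, 505 and 448 CPM in these groups, and the envelope precursor Sprr1a averaged 601, 367 and 139 CPM.

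Of 11 keratinocyte transcription factors tested, 10 were lower in BURP-19NE and 8 in BURP-16SR. Trp63, which maintains squamous identity, had a log2 fold change of -9.98 and -11.42. By tissue staining, the study reported TP63 protein as high in BURP-19NE and present in some cells of BURP-16SR. It reported BURP-17BaSq and BURP-24BaSq as negative. Against the mean of the other 5 Ba/Sq lines, edgeR called Trp63 RNA lower in neither of them. The log2 fold change was -0.74 (adjusted p = 0.0905) in BURP-17BaSq and -0.023 (adjusted p = 0.971) in BURP-24BaSq. The RNA and the staining thus differ in BURP-19NE and BURP-16SR, and the negative staining of BURP-17BaSq and BURP-24BaSq had no called drop in RNA beside it. The cause was not tested. Klf4 was lower in BURP-19NE (log2 fold change -3.98, adjusted p = 0.000101), while in BURP-16SR it had -0.65 (adjusted p = 0.407). The adhesion genes Cdh1 and Epcam were lower in both lines. Of 5 simple keratins, 1 (Krt8) was lower in BURP-19NE and 0 in BURP-16SR. Krt18 averaged 78.6 CPM in the Ba/Sq tumors, 167 in BURP-19NE and 231 in BURP-16SR, and Krt19 averaged 402, 44.5 and 442 CPM. Krt7 averaged 269, 163 and 46.7 CPM, and none of these 3 passed.

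Within the Ba/Sq lines the F test passed for 3 of 7 basal keratins, 5 of 5 simple keratins, 8 of 9 other suprabasal keratins, 16 of 23 envelope genes and 8 of 11 transcription factors, beside the 50.5% of all genes. Krt5 and Krt14 did not pass (adjusted p = 0.268 and 0.524). In BURP-24BaSq, where Krt78 and Krt80 were high, 7 of 23 envelope genes were higher beside 5.46% of genes, among them Emp1, Sprr1a and Ppl. Hopx, a homeodomain factor of keratinocyte differentiation, was higher too, by 3.2 on the log2 scale (SE 0.32, adjusted p = 3.58e-05). Hopx, Ivl and Rhcg, and above Pdgfra, Cd79a, Krt8 and Krt20, were chosen after their values were seen, as were Krt27, Tgm3 and Cdsn. In BURP-12BaSq, where Krt1 and Krt10 were high, 9 of 23 envelope genes were lower beside 5.86% of genes and 2, Ivl and Rhcg, were higher. Ivl, the envelope precursor involucrin, was higher by 2.21 (SE 0.47, adjusted p = 0.00431), whereas Sprr1a was lower (log2 fold change -2.74, SE 0.70, adjusted p = 0.0128). In BURP-25BaSq 1 of 23, the cross-linking enzyme gene Tgm3, was higher beside 2.05% of genes. In BURP-21BaSq Tgm3 was higher as well (log2 fold change 4.54, SE 0.87, adjusted p = 0.0125). Lor and Cdsn were also higher there and Ivl lower, beside 2.86% of genes called in either direction. Both lines are given here with C102-M1 as labelled.

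The tumors grew under skin, which itself makes Krt1 and Krt10. A list of 10 genes of the cornified skin layer summed to 790 to 2271 CPM in BURP-24BaSq, 80.7 to 139 CPM in BURP-12BaSq, 191 to 547 CPM in BURP-25BaSq and 19.9 to 511 CPM in the other 9 tumors. From 4 to 8 of the 10 had 3 counts or more in a Ba/Sq tumor. The 3 most abundant were above 0 in all 18 Ba/Sq tumors, with Flg at 15.6 to 2255 CPM, Lor at 0.594 to 54.0 CPM and Flg2 at 0.261 to 9.06 CPM. Hrnr, Lce1a1 and Krt77 were at 0 in 1 tumor each, Lce1b in 4, Lce1c and Krt2 in 9 each and Lce1m in 14. Of 15 hair follicle genes 1 to 5 reached 3 counts in a Ba/Sq tumor. Tchh ran from 31.3 to 837 CPM and the hair keratin Krt33b from 0 to 8.94 CPM, while Krt27 was at 0 in all 18. The hair list summed to 168 to 317 CPM in BURP-12BaSq and 32.2 to 42.5 CPM in BURP-25BaSq, the 2 lines with high Krt10. In lines with low Krt10 it was 76.1 to 839 CPM in BURP-18BaSq and 105 to 266 in BURP-17BaSq. It was 82.0 to 142.5 CPM in BURP-24BaSq and 38.2 to 64.5 in BURP-21BaSq. Over the 18 Ba/Sq tumors the sum ran from 32.2 to 839 CPM, close to the range of Tchh alone. In BURP-19NE 5 of 7 skin genes and 3 of 3 hair genes tested were lower, beside 15% of all genes. In BURP-16SR 4 of 7 skin genes were lower, beside 8.62%, and 1 of 4 hair genes, Krt27, was higher, beside 10.5%. The part of host skin in the levels of Krt1 and Krt10 was not tested.

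Male and female Ba/Sq lines were compared last, and no member passed the test. Krt78 had a median of 8.19 CPM and a range of 3.40 to 11 in 9 male tumors, against 35.7 CPM and 3.96 to 137 in 9 female tumors. Krt80 had a median of 14.1 CPM (8.11 to 80.9) in males and 103 CPM (4.25 to 340) in females. Both ranges overlapped. Tumors of a line share a donor, so counts were summed by line and 3 lines compared with 3. The male minus female log2 fold change was -2.62 (SE 0.64, adjusted p = 0.587) for Krt78 and -1.91 (SE 0.75, adjusted p = 0.772) for Krt80, and the other 4 members had adjusted p of 0.85 or more. edgeR called 0 of 21658 genes (0%), with 1388 at an unadjusted p under 0.05. On simulated data this comparison found very large changes but missed moderate ones, so it does not show that the sexes are alike. DESeq2 called 229, Krt78 among them (adjusted p = 0.0077), and the 18 tumors taken as replicates gave 414 calls, again with Krt78 (0.00848). The sexes differ in their lines as well, and BURP-24BaSq held the highest Krt78.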

How the data were processed

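Total RNA of 24 tumors was depleted of ribosomal RNA and sequenced in pairs. The authors aligned reads to GRCm38 (STAR 2.6.0a, GENCODE M16 genes) and deposited estimated counts per gene (expected counts) from RSEM 1.3.1, without normalization. CASAVA 1.8.2 is also named. Of all values, 12.5% were not whole, and counts were rounded here. Gene symbols matched 99.6% of identifiers. Coordinates and lengths came from GENCODE M21 on GRCm38, promoters from RefSeq. No column was left unused.

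Levels were CPM after TMM over all tumors, divided by the length of the principal transcript where genes are compared. Tests used edgeR 4.0.16 (glmQLFit and glmQLFTest, not robust, filterByExpr) in R 4.3.3, with limma 3.58.1 and, as an alternative, DESeq2 1.42.0. A gene was called at a Benjamini-Hochberg adjusted p under 0.05 over all genes tested and an absolute log2 fold change above 1, the F test by adjusted p alone. SE is the absolute log2 fold change over the square root of F. Correlations used log2 CPM with a prior count of 2. The scripts were tested on simulated data.

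The members and the 13 lists of 110 genes were chosen with earlier results of these data known, and 109 list genes were found. Named were all members, the 3 most abundant genes of each list in the Ba/Sq tumors, and the 3 non-member genes most like each member. One gene that this rule names is not reported here. Sex was compared over 6 summed lines because tumors of a line share a donor. Line and subtype came from the labels and the study, sex from the study. Alternatives were other size factors, other filters, DESeq2, other fits and samples left out. Replicate tumors of a line differed by more than sampling noise (lowest chi-square per degree of freedom 24).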

Additional observations from a re-analysis of the deposited data

How the results depend on the processing

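Of the members' values under all alternatives, 1343 kept their direction and their side of the threshold, 56 came to pass it, 13 no longer passed it and 23 changed sign, and each cause was not tested. Counts of genes called fell when at least 10 counts were asked of every sample, with fewer genes tested: to 2001 for BURP-19NE, 1594 for BURP-16SR, 977 for BURP-12BaSq, 450 for BURP-17BaSq, 1230 for BURP-18BaSq, 203 for BURP-21BaSq, 615 for BURP-24BaSq and 198 for BURP-25BaSq. The counts as reported were 5108, 4029, 2276, 1268, 3182, 587, 1598 and 532. Against the other 15 tumors as 1 group, the line counts were 941, 220, 2065, 4, 339 and 56 from BURP-12BaSq to BURP-25BaSq, and the log2 fold change turned for Krt80 in BURP-17BaSq (-0.263), Krt1 in BURP-18BaSq (-0.096), Krt4 in BURP-25BaSq (-0.328) and Krt78 in BURP-25BaSq (-0.69). DESeq2 called 1000 genes in BURP-21BaSq, 802 in BURP-25BaSq and 229 between the sexes. Counting C102-M1 as BURP-21BaSq, a choice made after seeing the data, gave 1735 genes in BURP-21BaSq and 1681 in BURP-25BaSq, where Krt4 (-0.46) and Krt78 (-1.178) turned. Between the sexes, no filter gave 12 genes and the 18 tumors as replicates 414.

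With each tumor left out in turn, the counts were 2670 to 4346 for BURP-16SR, 1238 to 2605 for BURP-12BaSq, 716 to 1734 for BURP-17BaSq, 2030 to 3893 for BURP-18BaSq, 92 to 1391 for BURP-21BaSq, 837 to 1960 for BURP-24BaSq and 167 to 1620 for BURP-25BaSq. The extremes of BURP-21BaSq were without P4.2 and without C102-M1, and those of BURP-25BaSq without C102-M3 and without C102-M1. Log2 fold changes that took both signs were Krt10 between BURP-16SR and BURP-19NE (-0.221 to 0.094), Krt1 in BURP-18BaSq (-2.801 to 1.221), Krt13 in BURP-21BaSq (-0.014 to 1.112), Krt1 in BURP-24BaSq (-1.216 to 0.007), and in BURP-25BaSq Krt4 (-0.465 to 0.436), Krt13 (-0.534 to 0.269), Krt78 (-1.152 to 0.628) and Krt80 (-3.273 to 0.313). With each line left out, the sex difference ran from -0.549 to 1.484 for Krt1 and from -3.531 to 3.537 for Krt10. DESeq2 gave Krt4 an adjusted p of 0.0185 across the 6 lines. Depth limited Krt1, Krt4 and Krt78 in BURP-16SR and BURP-19NE, each at 3 counts or fewer per group. No paired analysis was possible because replicate numbers follow the order of the samples and pair nothing.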
